A study of Homo sapiens with 6 samples.

Results

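The 44 genes described here belong to the ATF4 program and the unfolded protein response. They were chosen by name, from known ATF4 targets, enzymes of serine synthesis, tRNA synthetases, and the sensors and targets of endoplasmic reticulum (ER) stress. The rule is a list of names and uses no measured value, but it was drawn up with earlier results of these data known. All 44 were found among the 19469 genes of the count table, and all 44 passed the filter on low counts. When unfolded proteins accumulate in the ER, the transmembrane sensors PERK (gene EIF2AK3), IRE1 (ERN1) and ATF6 are activated. PERK phosphorylates the translation factor eIF2, as do sensors of amino acid shortage, heme shortage and double-stranded RNA, which lowers protein synthesis as a whole but favors translation of the ATF4 mRNA. ATF4 then activates genes for amino acid supply, tRNA charging and, when stress persists, cell death. IRE1 splices the XBP1 mRNA, and spliced XBP1 and cleaved ATF6 activate genes for ER chaperones and for the disposal of misfolded proteins. Much of this control acts on translation, splicing or cleavage, which gene-level read counts do not measure.

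The cells were L3.6pl, an established human pancreatic cancer line, grown in DMEM with fetal bovine serum and without any drug treatment. They were sorted by FACS for high (L1high) or low (L1low) surface levels of L1CAM, a cell adhesion molecule, and mRNA of 3 L1high and 3 L1low libraries was sequenced. Both groups come from the same line, whose name the cell line label writes as L6.6pl and the titles as L3.6PL, and neither carries a genetic change made for the study. Nothing in the labels says that the replicates are separate cultures, so p-values measure only the spread between these libraries, which may be technical.

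Total counts ran from 16334610 to 21064685 per library. Levels are given as CPM (counts scaled to library size with TMM factors), log2 fold changes are L1low minus L1high, and a gene was called at an adjusted p under 0.05. All adjusted p in the text are Benjamini-Hochberg values from edgeR's quasi-likelihood test. They cover the genes tested in each fit, 19467 over all 6 libraries and 19468 or 19469 with a library left out. L1CAM itself had 84.0, 69.8 and 89.5 CPM in the L1high libraries and 17.7, 23.7 and 20.0 CPM in the L1low libraries (log2 fold change −1.99, SE 0.12, adjusted p = 4.69e-06), so the labels and the sorting marker go together. All 7 epithelial markers were present in every library, with summed levels of 4542 to 5151 CPM in L1high and 5028 to 5414 CPM in L1low. Of these 7, 3 were called (42.9%, beside 7.95% of all genes): KRT19 was higher in L1low (log2 fold change 0.63, adjusted p = 0.00014), and CLDN4 (−0.35, adjusted p = 0.021) and EPCAM (−0.30, adjusted p = 0.0496) were lower. The part of such differences in the results was not tested. Of 7 fibroblast markers only LUM was in the table, at 78.1 to 89.8 CPM in L1high and 129.2 to 150.0 CPM in L1low (log2 fold change 0.78), and its part in the results was not tested. CD68 was the only 1 of 6 leukocyte markers analysed and stayed between 8.42 and 11.3 CPM, and PECAM1 was the only 1 of 5 endothelial markers, at 11.3 to 14.7 CPM. The other markers of these cell types, PTPRC and DCN among them, were not analysed here. In RNA from a sorted pool of cells, fewer cells with a transcript and less of it per cell cannot be told apart.

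Transcription factors of these pathways are known to bind short DNA elements, and the members' matches to these elements are shown first as sequence background. Of the members searched, 14 had a match to at least 1 of the 4 elements. RefSeq promoter windows of 250 bases before to 50 bases after a transcript start (GRCh38.p14) were found for 39 of the 44 members, in 55 windows. PSPH, SHMT2, PYCR1, NUPR1 and YARS1 had no entry. Letters were searched on both strands. The ER stress element ERSE, CCAAT and CCACG with any 9 bases between them, which ATF6 is known to bind together with NF-Y, was in 0.0769% of 35093 promoter windows, and among the members in XBP1 and CRELD2. The shorter ERSE-II, ATTGG and CCACG with any base between them, was in 0.0541% of all windows and in HYOU1, HERPUD1 and SDF2L1. The 5 windows below are printed from 5′ to 3′ on the strand of the gene, with the element in capitals. They lie at chr22:28800598-28800626 (XBP1, − strand), chr22:49918549-49918577 (CRELD2, + strand, inside the gene and in no exon), chr11:119057265-119057293 (HYOU1, − strand), chr16:56932016-56932044 (HERPUD1, + strand) and chr22:21642105-21642133 (SDF2L1, + strand). All but the CRELD2 window lie outside annotated genes.
XBP1: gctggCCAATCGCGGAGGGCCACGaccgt
CRELD2: cctctCGTGGCGAACTCGGATTGGgccat
HYOU1: ggcctgggaCGTGGTCCAATgagtacgcg
HERPUD1: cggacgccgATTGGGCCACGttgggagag
SDF2L1: cctcggaagCGTGGACCAATcaaaaccct

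The C/EBP-ATF response element (CARE), TGATGNAA, is the element that ATF4 binds with a C/EBP partner. It was in 3.62% of all windows and in 9 of the 55 member windows (16.4%), belonging to 9 members. In 6 of them it lies before the start, and these 6 windows are printed below in the same way. They lie at chr7:97872458-97872487 (ASNS, − strand, in an ASNS exon), chr15:40953251-40953280 (CHAC1, + strand, in a CHAC1 exon), chr16:56931955-56931984 (HERPUD1, + strand, outside annotated genes), chr16:70289675-70289704 (AARS1, − strand, in exons of AARS1 and DDX19B), chr7:30594834-30594863 (GARS1, + strand, in exons of GARS1 and GARS1-DT) and chr19:33374060-33374089 (CEBPG, + strand, inside the gene and in no exon).
ASNS: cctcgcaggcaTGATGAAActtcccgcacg
CHAC1: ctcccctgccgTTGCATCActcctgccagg
HERPUD1: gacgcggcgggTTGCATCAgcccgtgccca
AARS1: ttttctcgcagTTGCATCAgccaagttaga
GARS1: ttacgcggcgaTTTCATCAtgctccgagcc
CEBPG: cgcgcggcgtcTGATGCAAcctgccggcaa

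In CARS1, MARS1 and NARS1 the CARE letters lie at or after the start. The UPR element UPRE, TGACGTGG, was in 0.729% of all windows and in ALDH18A1, CARS1 and HYOU1, and in HYOU1 it overlaps a second ERSE-II match. These matches are letters in a window and are not measured binding.

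Across the 44 genes, L1low and L1high cells differed little. DDIT4 rose about 1.96-fold and NUPR1 1.49-fold in L1low, while WARS1 and XBP1 fell to 0.764 and 0.841 of their L1high levels, and the other 40 were not called. The 4 calls are 9.09% of the members, beside 7.95% of all genes tested (1548 of 19467). By direction the shares over all genes were 4.58% higher and 3.37% lower. Without L1high replicate 3, which the study's own table leaves out, there were also 4 calls, beside 7.57% of all genes. In that fit XBP1 lost its call (adjusted p = 0.061) and NARS1 gained one (0.048). The members' median log2 fold change was −0.03, beside −0.01 over all genes, with 18 members above 0 and 26 below. In 38 members the 95% interval of the log2 fold change lay within ±0.5 (86.4%, beside 57.6% of all genes). The 6 exceptions were DDIT4, NUPR1, WARS1, PSAT1, DNAJB9 and SDF2L1. The members were measured more closely than most genes, with a median SE of 0.08 against 0.12 over all genes.

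Smaller differences leaned toward L1high. In 13 members every L1low library was below every L1high library (29.5%, beside 13.7% of all genes), and in 4 every L1low library was above (9.09%, beside 15.2%). Over all genes 28.8% had no overlap in either direction. The 13 were XBP1, ATF6, CEBPG, ASNS, PSAT1, AARS1, EPRS1, GARS1, NARS1, WARS1, XPOT, SDF2L1 and MANF, and the 4 were ERN1, DDIT3, NUPR1 and DDIT4. At an unadjusted p under 0.05 there were 16 members, 4 higher and 12 lower (36.4%, beside 23.3% of all genes). Over the members, libraries of the same group differed by a root mean square of 0.12 to 0.19 on the log2 scale and libraries of different groups by 0.24 to 0.32. Over all genes the same measure was 0.27 to 0.37 within groups and 0.35 to 0.46 between them.

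**Figure D1:**
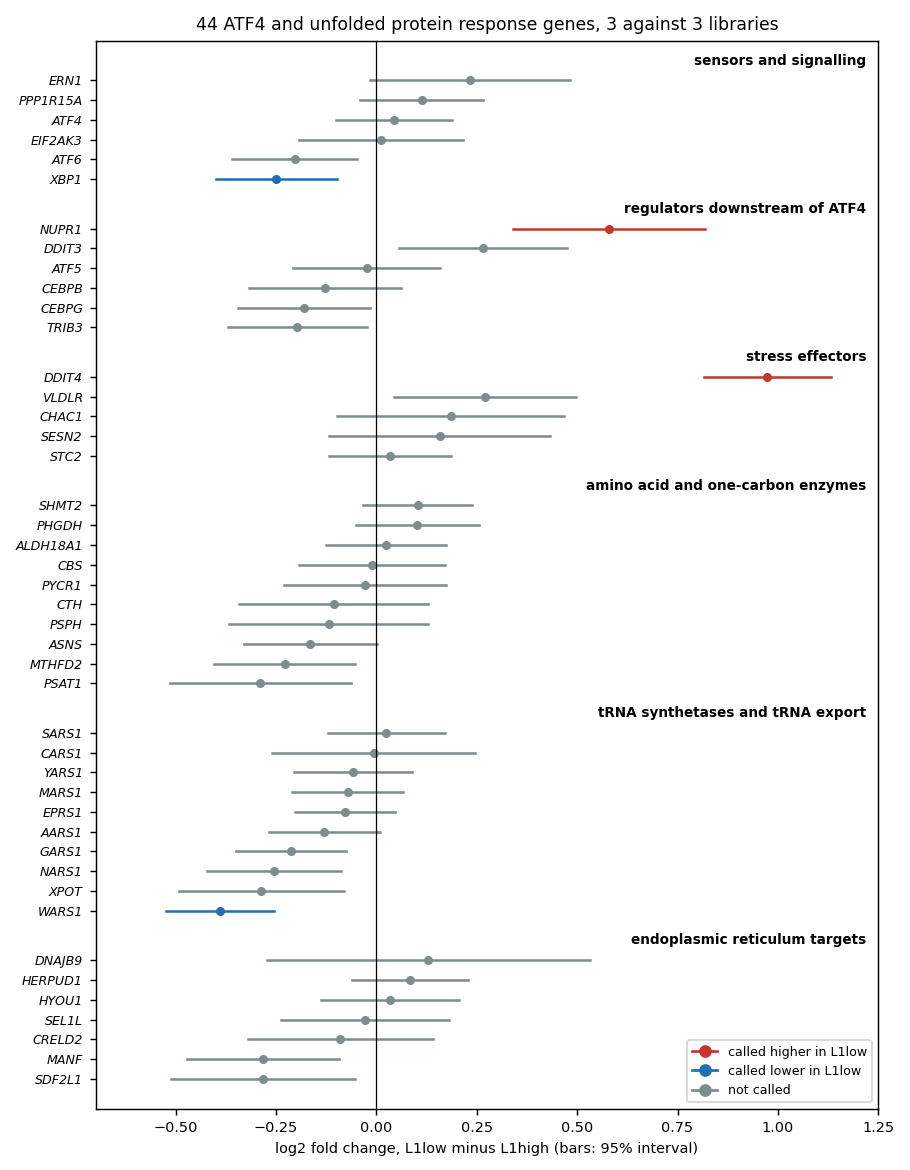
Log2 fold change (L1low minus L1high) of each of the 44 genes from the fit over 6 libraries, grouped by role; points are the estimates, bars the 95% intervals, and color marks the call. DDIT4 (0.97) stands far from the other genes, and 38 intervals lie within ±0.5.

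The sensors and their signalling partners comprised 6 members, of which 1 was called, XBP1 (16.7%, beside 7.95% of all genes). XBP1 (chr22:28794555-28800597, − strand), the transcription factor made by IRE1 splicing, had 101.7, 109.8 and 100.2 CPM in L1high and 85.9, 90.1 and 86.2 CPM in L1low. The L1low libraries lay below all L1high libraries (log2 fold change −0.25, SE 0.07, adjusted p = 0.047). Leaving out any single library ended this call, with adjusted p of 0.061 to 0.15 and log2 fold changes of −0.27 to −0.21. Its ERSE is printed above. The counts do not separate spliced from unspliced XBP1.

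ATF4, the effector of eIF2 phosphorylation, had 340.5, 354.9 and 361.5 CPM in L1high and 340.5, 361.2 and 388.0 CPM in L1low. The groups overlapped, and the log2 fold change of 0.04 (SE 0.07, adjusted p = 0.74) had a 95% interval of −0.10 to 0.19. Processed copies of ATF4 had counts of their own, at 6.17% (ATF4P3) and 5.16% (ATF4P4) of those of ATF4.

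ATF6, the sensor that is cut in the Golgi to release a transcription factor, had 113.3, 123.2 and 118.6 CPM in L1high and 104.5, 95.9 and 107.9 CPM in L1low. Its libraries did not overlap between groups, but the log2 fold change of −0.20 (SE 0.07) was not called (adjusted p = 0.11). ERN1, which encodes IRE1, had 12.2, 11.1 and 13.8 CPM in L1high and 14.9, 14.0 and 14.4 CPM in L1low. Here too the groups did not overlap, in the opposite direction, and the log2 fold change of 0.23 (SE 0.11, adjusted p = 0.25) was not called. EIF2AK3, which encodes PERK, had 31.5, 31.2 and 28.0 CPM in L1high and 33.0, 29.9 and 28.6 CPM in L1low, with overlapping groups and a log2 fold change of 0.01 (SE 0.09, 95% interval −0.19 to 0.22). PPP1R15A (GADD34), the phosphatase subunit that reverses eIF2 phosphorylation, had a log2 fold change of 0.11 (95% interval −0.04 to 0.27). Per kilobase of exon, the mean L1high levels of the members ran from 0.644 CPM for ERN1 to 141 CPM for PPP1R15A, and ATF4 was next to the top at 135 CPM.

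**Figure D2:**
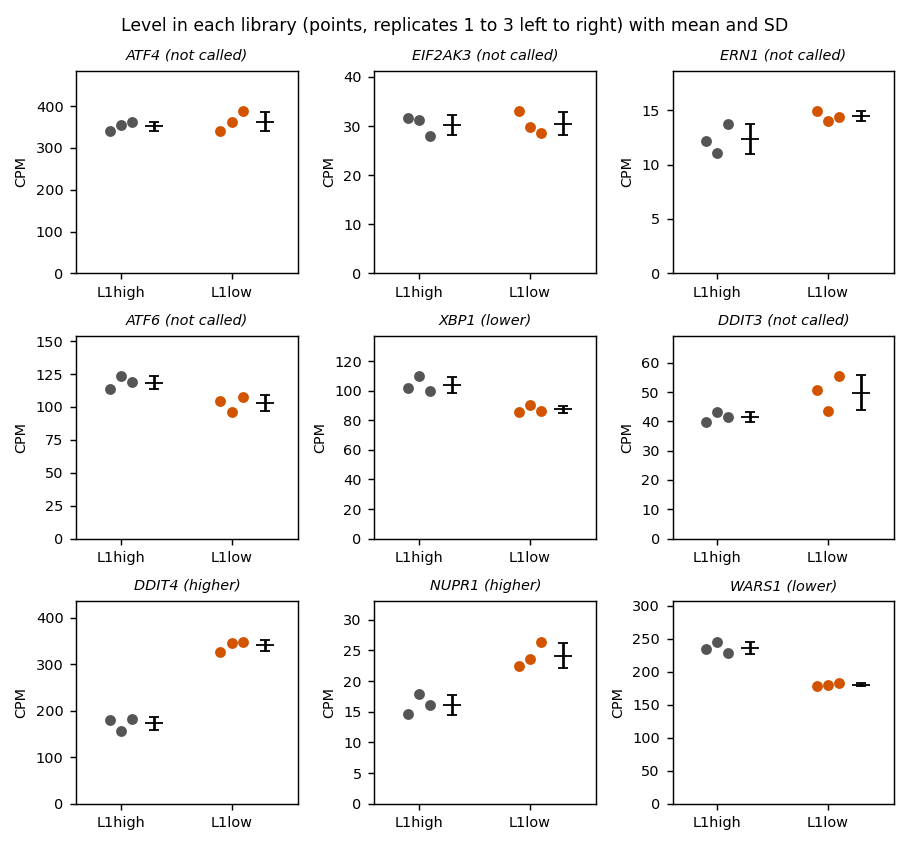
CPM in each of the 6 libraries for the 4 genes called and for ATF4, ATF6, ERN1, EIF2AK3 and DDIT3, with a panel and an axis from 0 for each gene; points are libraries, and the mark beside them is the mean with its SD (n = 3). The groups separate for DDIT4, NUPR1, WARS1, XBP1, ATF6, ERN1 and DDIT3 and overlap for ATF4 and EIF2AK3.

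Of 6 regulators downstream of ATF4, 1 was called, NUPR1 (16.7%, beside 7.95% of all genes). NUPR1 (chr16:28532708-28539008, − strand), a small stress-induced nuclear protein, had 14.6, 17.8 and 16.0 CPM in L1high and 22.5, 23.5 and 26.4 CPM in L1low. Every L1low library was above every L1high library (log2 fold change 0.58, SE 0.11, 95% interval 0.34 to 0.82, adjusted p = 0.0076). The call was lost without L1high replicate 1 (adjusted p = 0.057) and held in the other 12 alternatives. DDIT3 (CHOP), the proapoptotic factor of prolonged ER stress, had 39.9, 43.0 and 41.4 CPM in L1high and 50.5, 43.6 and 55.3 CPM in L1low. L1low replicate 2 was barely above the highest L1high library, and the log2 fold change of 0.27 (SE 0.10) was not called (adjusted p = 0.12). DDIT3 overlaps MARS1 and MBD6 on the other strand, and whether counting used strand is not given in the sources used here. MBD6 had 168% of the counts of DDIT3 and a log2 fold change of 0.25 (adjusted p = 0.040), and its part in the DDIT3 value was not tested. TRIB3, a pseudokinase that restrains ATF4 signalling, and CEBPG, a binding partner of ATF4, had log2 fold changes of −0.20 and −0.18 (adjusted p = 0.16 and 0.18). The TRIB3 libraries overlapped between groups. Without L1high replicate 2, TRIB3 was called lower (log2 fold change −0.27, adjusted p = 0.038). Leaving out any other library did not give this call (adjusted p of 0.28 to 0.40). CEBPB, another C/EBP partner, had −0.13, and ATF5, a factor translated under the same control as ATF4, had −0.02. NUP62 overlaps ATF5 on the other strand, with 441% of its counts and a log2 fold change of 0.06. In the fit over all libraries NUPR1 was called and TRIB3, also an ATF4 target, was not. The part of ATF4 in either value was not tested.

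All 5 stress effectors had log2 fold changes above 0, but DDIT4 accounted for most of the difference in their summed level. DDIT4 (REDD1, chr10:72273919-72276036, + strand), an inhibitor of mTORC1 signalling that ATF4 and hypoxia both induce, had 180.7, 157.3 and 182.0 CPM in L1high and 326.9, 346.1 and 348.4 CPM in L1low. The lowest L1low library was far above the highest L1high library (log2 fold change 0.97, SE 0.07, 95% interval 0.82 to 1.13). The edgeR call held in all 13 alternatives, with log2 fold changes of 0.91 to 1.02 when single libraries were left out. VLDLR, the very low density lipoprotein receptor, had a log2 fold change of 0.27 (adjusted p = 0.14). CHAC1, which degrades glutathione, had 0.18, SESN2, a sestrin that signals leucine shortage to mTORC1, had 0.16, and STC2, a secreted glycoprotein, had 0.03. The group summed to 293 to 327 CPM in L1high and 477 to 499 CPM in L1low. Without DDIT4 the sums were 136 to 146 CPM and 147 to 153 CPM.

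The 10 enzymes of serine, proline, asparagine, folate and cysteine metabolism had no member called by edgeR (beside 7.95% of all genes) or by DESeq2. At an unadjusted edgeR p under 0.05 there were 2 (20%, beside 23.3% of all genes). These 2 were PSAT1, which makes phosphoserine (log2 fold change −0.29, adjusted p = 0.12), and MTHFD2, the mitochondrial folate dehydrogenase (−0.23, adjusted p = 0.11). On the other strand ENSG00000264324 overlaps MTHFD2, with 72.1% of its counts and a log2 fold change of −0.01. The part of ENSG00000264324 in the MTHFD2 value was not tested. PSAT1 had 81.7, 91.6 and 73.2 CPM in L1high and 71.6, 72.0 and 58.3 CPM in L1low, so its groups did not overlap but L1high replicate 3 was close to L1low. ASNS, the asparagine synthetase whose CARE is printed above, had −0.17 (95% interval −0.33 to 0.00). An unnamed long noncoding RNA gene on the same strand (ENSG00000284707) overlaps ASNS and had nearly the same counts, a mean of 1471.0 beside 1479.3. In serine synthesis, PHGDH, which takes the entry step, had 0.10, and PSPH, which takes the last step, had −0.12. SHMT2, which transfers the serine carbon to folate, had 0.10. NDUFA4L2 overlaps SHMT2 on the other strand, with 27.2% of its counts and a log2 fold change of 0.47 (adjusted p = 0.0011). The part of NDUFA4L2 in the SHMT2 value was not tested. ALDH18A1 and PYCR1, the proline enzymes, had 0.02 and −0.03, and CTH and CBS, which convert homocysteine to cysteine, had −0.11 and −0.01. The summed level was 1054 to 1070 CPM in L1high and 1042 to 1066 CPM in L1low, with overlapping groups. Pseudogenes of 3 of these enzymes had counts of their own: PSPHP1 had 50.4% of those of PSPH, PSAT1P3 19.5% of those of PSAT1 and MTHFD2P7 17.8% of those of MTHFD2.

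Of the 9 tRNA synthetases and the tRNA exporter XPOT, 9 had log2 fold changes below 0. Among these 10 genes 1 was called, WARS1 (10%, beside 7.95% of all genes). WARS1 (chr14:100333790-100376805, − strand), the tryptophan synthetase, had 234.0, 245.8 and 228.3 CPM in L1high and 178.3, 179.6 and 182.9 CPM in L1low. The groups were well apart (log2 fold change −0.39, SE 0.06, 95% interval −0.52 to −0.25, adjusted p = 0.0025), and the call held in all 13 alternatives. Genes on the other strand overlap WARS1, and one of them, ENSG00000258666, had 12% of its counts and a log2 fold change of −0.33 (adjusted p = 0.068). XPOT, which carries tRNA out of the nucleus, had −0.29 (adjusted p = 0.089) and was called without L1low replicate 1 (−0.38, adjusted p = 0.037). NARS1 had −0.26 (adjusted p = 0.065) and was called without L1high replicate 3 (−0.29, adjusted p = 0.048), and GARS1 had −0.21 (adjusted p = 0.063).

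AARS1 (−0.13), EPRS1 (−0.08), MARS1 (−0.07), YARS1 (−0.06) and CARS1 (−0.01) were also below 0, and SARS1 (0.02) was the only synthetase above it. The median was −0.10. In 6 of the 10 the groups did not overlap, all with L1low lower (60%, beside 13.7% of all genes). The summed level of the 10 was 1807 to 1862 CPM in L1high and 1637 to 1710 CPM in L1low, and without WARS1 it was 1573 to 1620 CPM and 1457 to 1527 CPM, so the sums did not overlap in either case. The pseudogene XPOTP1 had 40.8% of the counts of XPOT.

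**Figure D3:**
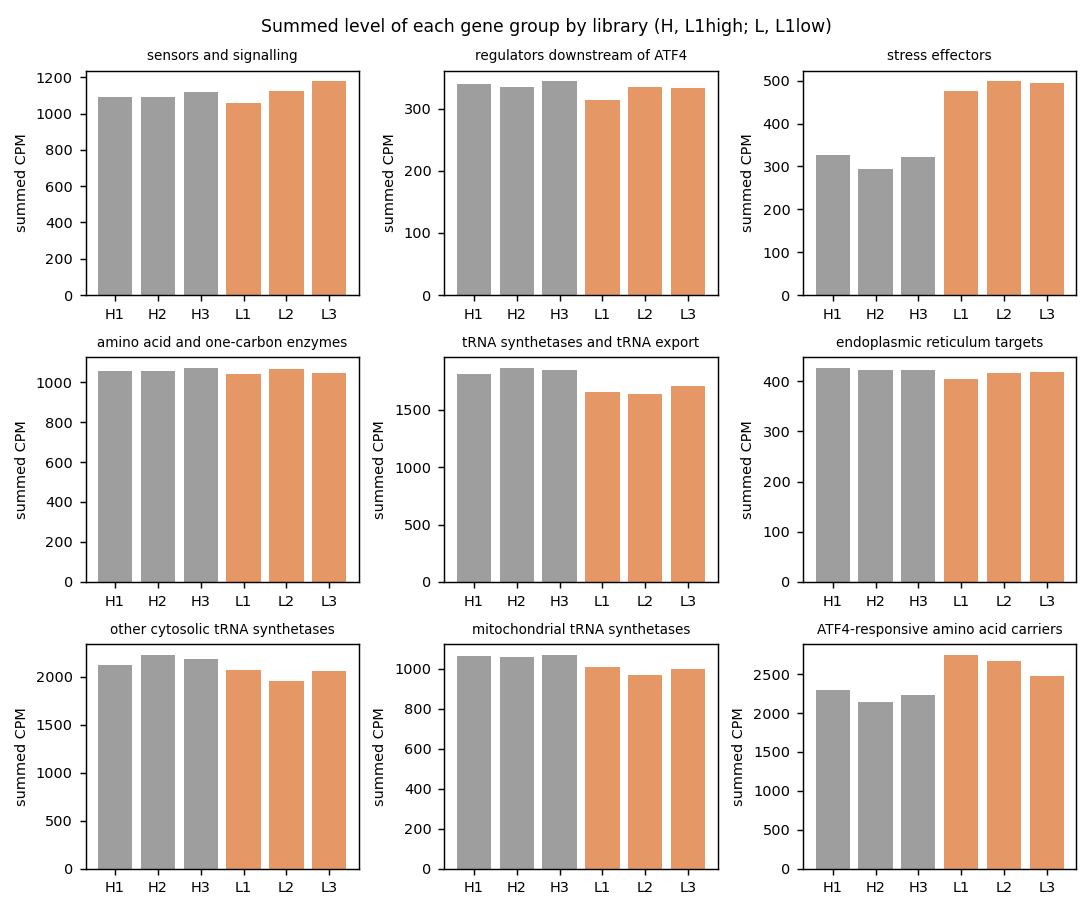
Summed CPM of the 6 role groups of the members and of 3 other lists, with each group on its own axis from 0; each bar is a library (H, L1high; L, L1low, with the replicate number). The stress effectors are higher and the tRNA group and the ER targets lower in every L1low library. The sensors, the regulators downstream of ATF4 and the amino acid enzymes overlap between groups.

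The 7 ER targets had no member called by edgeR (beside 7.95% of all genes) or by DESeq2. At an unadjusted edgeR p under 0.05 there were 2 (28.6%, beside 23.3% of all genes). These were MANF, an ER-resident factor secreted under stress (log2 fold change −0.28, adjusted p = 0.072), and SDF2L1, a cochaperone of the ER chaperone BiP (−0.28, adjusted p = 0.13). MANF had 74.4, 83.2 and 72.6 CPM in L1high and 56.9, 65.0 and 67.6 CPM in L1low, with L1low below L1high in every library. DNAJB9, a BiP cochaperone and known XBP1 target, had the fewest reads of the members, at 4.63 to 7.47 CPM, and its log2 fold change of 0.13 had the widest 95% interval, −0.27 to 0.53. HERPUD1 and SEL1L, which serve ER-associated degradation, had 0.08 and −0.03. HYOU1, an ER chaperone of the Hsp70 family, had 0.03, and CRELD2, a secreted ER stress protein, had −0.09. ALG12 overlaps CRELD2 on the other strand, with 88.3% of its counts and a log2 fold change of 0.11. The part of ALG12 in the CRELD2 value was not tested. The 7 summed to 422 to 426 CPM in L1high and 405 to 419 CPM in L1low, without overlap. Of the 5 genes with an ERSE or ERSE-II, the log2 fold changes ran from −0.28 (SDF2L1) to 0.08 (HERPUD1). Those of the 9 genes with a CARE ran from −0.26 (NARS1) to 0.18 (CHAC1).

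The rest of the pathway was read from further lists of genes. Among 12 genes of the eIF2 circuit (kinases, eIF2 and eIF2B subunits, phosphatase), 1 was called (8.33%, beside 7.95% of all genes). It was EIF2S1, the eIF2 subunit that the kinases phosphorylate, which fell by 0.30 on the log2 scale (adjusted p = 0.023). This call was lost without L1high replicate 1 (adjusted p = 0.095), L1low replicate 2 (0.14) or L1low replicate 3 (0.059).

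Of 10 ATF4-responsive amino acid carriers, 3 were called (30%, beside 7.95% of all genes), all higher in L1low. These were the cystine carrier SLC7A11 (log2 fold change 0.46, adjusted p = 0.035), the leucine carrier SLC7A5 (0.36, adjusted p = 0.010) and the glutamine carrier SLC1A5 (0.27, adjusted p = 0.044). SLC7A5 had 837, 721 and 858 CPM in L1high and 1050.1, 1051 and 995 CPM in L1low, without overlap. Its call was lost without L1low replicate 2 (adjusted p = 0.074), where no carrier was called, beside 627 of 19468 over all genes. The call of SLC7A11 was also lost without L1high replicate 1 (0.10), L1high replicate 3 (0.067) or L1low replicate 1 (0.10). SLC1A5 lost its call without any library but L1high replicate 3, with adjusted p of 0.078 to 0.17, and when scaled by library totals alone (0.053). SLC3A2, the partner chain of SLC7A5 and SLC7A11, had 0.09. The carriers summed to 2139 to 2302 CPM in L1high and 2471 to 2745 CPM in L1low, and the median of their log2 fold changes was 0.23 (0.15 to 0.27 with single libraries left out).

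Of 12 other ATF4 and CHOP targets, 11 were analysed and 3 were called (27.3%, beside 7.95% of all genes), while FGF21 was not analysed here. ATF3, a stress-induced repressor and activator of transcription, had 292.8, 287.0 and 291.4 CPM in L1high and 391.2, 416.7 and 417.8 CPM in L1low (log2 fold change 0.49, SE 0.06). KLHL24, a ubiquitin ligase adaptor, was also higher (0.51, adjusted p = 0.0075), and both held in all 13 alternatives. GDF15, a secreted stress cytokine, was lower, with 15.0, 14.1 and 15.4 CPM in L1high and 7.76, 10.8 and 9.94 CPM in L1low (−0.64, SE 0.13, adjusted p = 0.012). Its call was lost without L1high replicate 1 (−0.63, adjusted p = 0.063). The median log2 fold change of the 11 was 0.19 (0.15 to 0.28 with single libraries left out), with 8 above 0 and 3 below. ATF4 can induce both ATF3 and GDF15, and its part in these changes was not tested.

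The 11 cytosolic tRNA synthetases outside the member list had 2 called, both lower (18.2%, beside 7.95% of all genes). They were FARSB, a phenylalanine subunit (−0.32, adjusted p = 0.031), and IARS1, for isoleucine (−0.24, adjusted p = 0.032). FARSB kept its call without L1high replicate 3 or L1low replicate 1 and IARS1 without L1low replicate 1, with adjusted p of 0.056 to 0.18 without another library. Their median was −0.12, and −0.04 without L1high replicate 3, where that of the member synthetases and XPOT was −0.08. In the fit over all libraries 9 of the 11 were below 0. Their summed level was 2118 to 2223 CPM in L1high and 1954 to 2063 CPM in L1low.

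The 12 ER chaperones and folding enzymes, the core output of ATF6 and XBP1, had no gene called by edgeR (beside 7.95% of all genes) or DESeq2. Only 1 had an unadjusted edgeR p under 0.05 (8.33%, beside 23.3% of all genes). HSPA5 (BiP), the standard readout of ER stress, had 1188, 1207 and 1244 CPM in L1high and 1208, 1178 and 1327 CPM in L1low (log2 fold change 0.03, SE 0.06). Their log2 fold changes ran from −0.22 to 0.08, and their summed levels overlapped, at 5757 to 5873 CPM and 5579 to 5795 CPM. Of 12 genes of ER-associated degradation, 11 were analysed (DERL3 was not analysed here). None was called by edgeR (beside 7.95% of all genes) or DESeq2. Among the 11, 4 had an unadjusted edgeR p under 0.05 (36.4%, beside 23.3% of all genes).

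**Figure D4:**
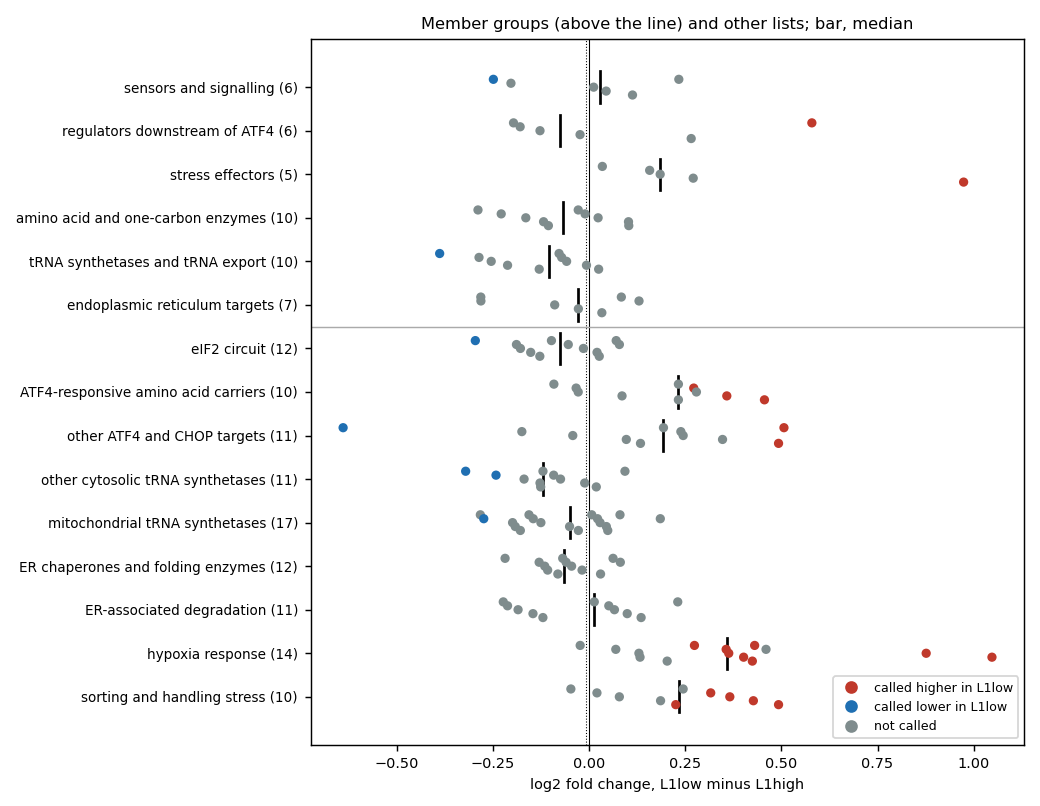
Log2 fold change (L1low minus L1high) of every gene in the 6 role groups of the members, above the gray line, and in 9 other lists, with the number of genes in parentheses; points are genes, colored by call, black bars are medians and the dotted line is the median of all genes. The highest medians are those of the hypoxia genes (0.36), the handling stress genes (0.23) and the carriers (0.23). Those of the other ATF4 and CHOP targets (0.19) and the stress effectors (0.18) come next. In these lists, in this order, 1, 1, 3, 3 and 0 genes lie to the left of 0. The median of the ER chaperones is −0.06.

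Genes induced by hypoxia and by handling of cells moved with DDIT4, NUPR1 and ATF3, and their part in those changes was not tested. Of 14 hypoxia genes 8 were called (57.1%, beside 7.95% of all genes), all higher in L1low. The 14 summed to 5810 to 6045 CPM in L1high and 7711 to 7937 CPM in L1low. Without L1low replicate 2, 5 of the 14 were called. In that fit 627 of 19468 genes were called, beside 1548 of 19467 with all libraries. Of 10 genes known to respond to sorting and handling 5 were called (50%, beside 7.95% of all genes), all higher. The 10 summed to 7649 to 8264 CPM in L1high and 9596 to 10308 CPM in L1low. ATF3 stands in this list too and is counted in the 5 called and in the sums. The others called were FOSB (0.43), IER2 (0.37), EGR1 (0.32) and FOS (0.23). Without L1high replicate 1 or L1low replicate 2, ATF3 and FOSB were the 2 called, in fits with 674 and 627 of 19468 genes called. The calls of IER2, EGR1 and FOS were lost without L1high replicate 1 (adjusted p = 0.082, 0.056 and 0.12) or L1low replicate 2 (0.15, 0.078 and 0.18). IER2 was also lost without L1high replicate 2 (0.066) or L1low replicate 3 (0.064), and FOS without L1high replicate 2 (0.071) or L1low replicate 1 (0.051). The heat shock genes HSPA1A and HSPA1B of the same list had log2 fold changes of 0.02 and −0.05.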

How the data were processed

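The authors aligned paired-end reads of L1high and L1low mRNA libraries to GRCh38 with BWA, which places no read across an intron, and used featureCounts with the genes of Ensembl release 94. What they deposited are raw read counts. Strand and multi-mapping options are not given in the sources used here. The processing notes also name DESeq2. Each gene in the table exceeded 1 CPM in at least 2 libraries. Symbols and positions came from GENCODE release 44 (GRCh38), which matched 19344 of 19469 identifiers.

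L1low was compared with L1high over all 6 libraries in R 4.3.3 with edgeR 4.0.16 (TMM, filterByExpr, which removed 2 genes, and the quasi-likelihood test, adjusted by Benjamini-Hochberg over all genes). The SE is the log2 fold change divided by the square root of F. The fit was tested on simulated data. The alternatives were each library left out in turn (without L1high replicate 3, the 5 libraries of the study's own table remain), the replicate number as a block, RLE or upper-quartile factors, library totals only, DESeq2 1.42.0, no filter, and at least 10 counts in every library. The closest libraries, L1high replicates 1 and 3, differed beyond sampling noise (chi-square per degree of freedom 3.66), so none was counted as a duplicate.

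The members and lists were chosen with earlier results of these data known. Every member is named, with values per library for those called and for the sensors. Of each other list the called genes are named, at most 4 by the size of their log2 fold change. PSAT1, MANF and DDIT3 values per library, and genes named for their overlap or as uncalled members of another list, were added after their values were seen. A result of the list of mitochondrial tRNA synthetases is not reported here.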

Additional observations from a re-analysis of the deposited data

How the results depend on the processing

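Over the 13 alternatives the 44 members gave 572 values, of which 535 kept direction and side of the threshold, 7 lost a call, 10 gained one and 20 changed sign. All 20 sign changes came from leaving out 1 library, in genes near 0. Their log2 fold changes then ranged from −0.109 to 0.0675 (SEL1L), −0.101 to 0.0647 (CARS1), −0.104 to 0.0288 (PYCR1), −0.0307 to 0.103 (HYOU1), −0.00874 to 0.270 (DNAJB9), −0.0685 to 0.0666 (CBS), −0.0584 to 0.00418 (ATF5), −0.0499 to 0.0665 (EIF2AK3), −0.171 to 0.0106 (CRELD2), −0.0104 to 0.0796 (STC2) and −0.0181 to 0.0542 (SARS1). With single libraries left out, 1 to 2 members were called higher, 1 to 2 lower, and the members' median was −0.0651 to −0.0160. Calls over all genes then ran from 627 (without L1low replicate 2) and 674 (without L1high replicate 1) to 1473 (without L1high replicate 3). These fits hold fewer libraries, and no other cause was tested.

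The replicate number as a block gave 8 members called lower and 2 higher, and 2363 calls over all genes. It added MTHFD2, GARS1, NARS1, PSAT1, MANF and XPOT. Same-numbered libraries correlated in their deviations at 0.07, 0.09 and 0.21, and each library correlated best with its own number, a hint from the data that the labels do not state, so the numbers were not taken as pairs. RLE and upper-quartile factors, no filter and the stricter filter left the calls of the members as they were, DESeq2 called the same number (4), and library totals alone added GARS1 (adjusted p = 0.042). Counts limit DNAJB9 most, at 4.63 to 7.47 CPM.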

Other observations

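Of the 14 hypoxia response genes listed for comparison with DDIT4, 8 were called (57.1%, beside 7.95% of all genes), all higher in L1low, and 6 were not. NDRG1, a stress and differentiation gene, had 974, 938 and 999 CPM in L1high and 1959, 2046 and 2014 CPM in L1low (log2 fold change 1.05, SE 0.06). ADM, which encodes the vasodilator peptide adrenomedullin, had 32.1, 30.1 and 33.5 CPM in L1high and 55.1, 59.7 and 60.8 CPM in L1low (0.88, SE 0.08). EGLN3, an oxygen-sensing prolyl hydroxylase, and SLC2A1, the glucose carrier GLUT1, had 0.43 and 0.42. These 4 were called in all 13 alternatives. VEGFA (0.13) and LDHA (−0.02) were not called.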
